A study of Mus musculus with 7 samples.

Results

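Replication-dependent histone genes were described in mouse tumors that carry a deletion in exon 19 of Egfr. The genes were all rows of the expression table whose symbol begins with Hist1h, Hist2h, Hist3h or Hist4h, the older mouse names of the histone gene clusters. The rule found 67 of the 21892 listed genes, of which 6 encode linker histone H1, 18 encode H2A, 18 H2B, 12 H3 and 13 H4. The Hist1 cluster on chromosome 13 holds 54 of them, the Hist2 cluster on chromosome 3 holds 10, the Hist3 locus on chromosome 11 holds 2 and Hist4h4 on chromosome 6 stands alone. Hist1h2aa and Hist1h2ba, known as testis variants of H2A and H2B, were listed at 0 in every library. The other 65 members had a mean of at least 1 TPM (an abundance scaled by transcript length and by the library's total) and entered the comparisons.

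Replication-dependent histones package newly made DNA, and their genes are transcribed and their RNAs stabilised mainly in S phase. Their mRNAs generally end in a conserved stem-loop that is bound by the protein SLBP instead of a poly(A) tail, and they are degraded when DNA synthesis stops. Replacement histones, such as the products of H3f3a and H2afz, come from separate genes, generally with polyadenylated mRNAs, and many of them are also made outside S phase. Methods that select poly(A) RNA lose most of the stem-loop class, whereas depletion of ribosomal RNA from total RNA, as used here per the labels' protocols, keeps it.

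Tumors had been passaged subcutaneously in C57BL/6 mice, and all 7 groups carried the Egfr deletion. Gefitinib, which inhibits the tyrosine kinase EGFR, was given for 3 days (gefitinib day 3) or for 14 days (gefitinib day 14), beside a group given vehicle and sampled at day 3 (vehicle day 3). A further 4 groups had 14 days of gefitinib and then 7 days of DC101, an antibody against VEGFR2, of 4H2, an antibody against PD-1, of both antibodies (combination), or of vehicle (vehicle day 21). The titles of the vehicle day 3 and vehicle day 21 groups name vehicle, while their treatment fields record no treatment. The sources used here do not give the number of animals behind a library. Each group has 1 library, so that every difference below compares 2 libraries, carries no p-value and has no replicate check. The vehicle day 3, gefitinib day 14 and vehicle day 21 libraries each enter several of the 9 comparisons, and no overlap between comparisons was computed.

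Values of each library were scaled to the same total over the listed genes, and the sequencing depth is unknown. The tissue is labelled as lung tumor, and 2 of the 4 lung epithelial genes looked at, chosen after their values were seen, were the surfactant genes Sftpc and Sftpb, which were between 2429 and 9561 TPM in the 5 libraries without 4H2. With 4H2, Sftpc was at 28.8 TPM and Sftpb at 76.2 TPM, and with the combination at 144.6 and 478.7 TPM. Nkx2-1, the lung lineage factor, was at 1.1 TPM with 4H2 and 14 TPM with the combination, and at 122.3 TPM or more elsewhere. The club cell gene Scgb1a1 was at 11 TPM or lower everywhere and listed at 0 in 3 libraries. A list of 12 skeletal muscle genes took 8.49% of all TPM with 4H2 and 8.41% with the combination, against 0.322% at vehicle day 21. In bulk tissue, fewer cells of a type and less RNA per cell cannot be told apart.

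The stem-loop that defines this RNA class was looked for in the annotated gene models (GENCODE M21 transcripts, GRCm38), past the coding sequence, as 6 paired bases around a loop of 4. The first strand of the stem had to begin with GG and end in T, and the loop to begin with TT or TC. All 6 bases had to pair, so that a variant outside this pattern was counted as absent. It was present in 46 of the 67 members, in 8 forms. For each form 1 member is shown to let the classes be compared. Hist3h2a was added because its RNA moved differently from most of the rest. Capitals mark the stem and loop. The sequences lie at chr13:23571838-23571863, plus strand (Hist1h2bg), chr13:22036295-22036320, plus strand (Hist1h2bk), chr3:96220413-96220438, minus strand (Hist2h2ac), chr13:23535884-23535909, plus strand (Hist1h3g), chr13:23581945-23581970, plus strand (Hist1h4d), chr3:96262934-96262959, minus strand (Hist2h4), chr13:21735432-21735457, plus strand (Hist1h4j), chr13:23760795-23760820, minus strand (Hist1h4a) and chr11:58955167-58955192, plus strand (Hist3h2a).
Hist1h2bg: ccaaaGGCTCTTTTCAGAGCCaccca
Hist1h2bk: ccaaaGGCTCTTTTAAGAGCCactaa
Hist2h2ac: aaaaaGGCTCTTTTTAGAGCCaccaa
Hist1h3g: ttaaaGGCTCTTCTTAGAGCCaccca
Hist1h4d: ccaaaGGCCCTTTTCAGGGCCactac
Hist2h4: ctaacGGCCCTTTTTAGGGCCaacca
Hist1h4j: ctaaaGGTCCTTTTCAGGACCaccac
Hist1h4a: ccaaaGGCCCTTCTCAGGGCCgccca
Hist3h2a: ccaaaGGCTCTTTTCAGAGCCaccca

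The form of Hist1h2bg was found in 26 members, none of them H4 genes. The form of Hist1h4d was found in 7 members, all of them H4 genes. Hist1h2bk stands for 6 members, Hist2h4 and Hist1h4j for 2 each, and the other 3 forms for 1 member each. No form was found both in the 12 H4 genes with a match and in the 34 matched genes of the other classes. Hist3h2a and Hist3h2ba are among the 26 members of the commonest form. Of the 21 members without a match, 15 have a model that ends within 5 bases of the coding sequence, so that these models do not reach the place where the stem-loop would lie.

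Upstream sequence was matched for 62 members (RefSeq promoters, GRCm38.p6, 250 bases before to 50 after the start). Both strands were searched for the TATA motif TATAAA, for the CCAAT box, for the octamer ATTTGCAT and for AAACACA, a motif known from H1 promoters. TATAAA was in 35 of the 62 windows (56.5%) and in 14.2% of all 27025 promoters of the table. CCAAT was in all matched H1, H2A, H2B and H3 windows but in 3 of the 12 H4 windows, and in 37.9% of all promoters. The octamer was in 7 H2A and 6 H2B windows and in no H1, H3 or H4 window (1.75% of all promoters). AAACACA was in 5 of the 6 H1 windows and in 2 H2A and 2 H2B windows (7.14% of all promoters). A match could lie anywhere in the window, and windows of neighbouring genes on opposite strands can overlap, so that the same site counts for both. Among the octamers, this holds for those of Hist1h2ah and Hist1h2bk, of Hist1h2ae and Hist1h2bg, and of Hist1h2aa and Hist1h2ba. Sites of the other motifs were shared as well. Examples are the TATAAA of Hist1h2ak and Hist1h2bn, that of Hist1h2ae and Hist1h2bg, and the AAACACA of Hist1h2aa and Hist1h2ba.

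The 250 upstream bases are shown for an H1, an H2B and an H4 gene of the Hist1 cluster and for both Hist3 genes, with the motifs in capitals on either strand. They lie at chr13:23738557-23738806, plus strand (Hist1h1c), chr13:23571150-23571399, plus strand (Hist1h2bg), chr13:23581318-23581567, plus strand (Hist1h4d), chr11:58954435-58954684, plus strand (Hist3h2a) and chr11:58948661-58948910, plus strand (Hist3h2ba).
Hist1h1c: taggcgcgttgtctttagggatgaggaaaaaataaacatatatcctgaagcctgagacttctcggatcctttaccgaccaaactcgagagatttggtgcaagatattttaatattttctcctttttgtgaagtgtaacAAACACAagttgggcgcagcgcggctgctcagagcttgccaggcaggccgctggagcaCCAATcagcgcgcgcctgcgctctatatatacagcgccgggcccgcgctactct
Hist1h2bg: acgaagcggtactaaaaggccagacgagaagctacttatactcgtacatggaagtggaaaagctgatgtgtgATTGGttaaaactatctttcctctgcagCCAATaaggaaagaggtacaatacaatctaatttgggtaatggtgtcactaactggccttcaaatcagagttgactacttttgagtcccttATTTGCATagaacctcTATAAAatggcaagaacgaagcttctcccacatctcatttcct
Hist1h4d: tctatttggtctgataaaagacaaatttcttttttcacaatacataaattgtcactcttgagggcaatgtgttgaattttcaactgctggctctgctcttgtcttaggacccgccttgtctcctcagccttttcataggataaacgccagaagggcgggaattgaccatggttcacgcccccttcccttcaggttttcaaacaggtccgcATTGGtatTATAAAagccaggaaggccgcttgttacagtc
Hist3h2a: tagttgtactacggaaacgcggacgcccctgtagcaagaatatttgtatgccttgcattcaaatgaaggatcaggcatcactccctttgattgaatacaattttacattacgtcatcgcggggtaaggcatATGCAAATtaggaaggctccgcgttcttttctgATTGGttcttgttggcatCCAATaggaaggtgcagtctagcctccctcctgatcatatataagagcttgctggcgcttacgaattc
Hist3h2ba: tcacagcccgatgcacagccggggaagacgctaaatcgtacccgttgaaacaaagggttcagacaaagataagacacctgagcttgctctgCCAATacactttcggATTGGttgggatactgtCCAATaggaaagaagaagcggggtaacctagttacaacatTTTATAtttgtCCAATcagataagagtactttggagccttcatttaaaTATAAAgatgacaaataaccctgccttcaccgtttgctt

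Hist1h2bg lies head to head with the H2A gene Hist1h2ae, whose promoter window on the minus strand covers chr13:23571171-23571470. The octamer, the TATAAA and the CCAAT motifs shown for Hist1h2bg thus belong to both windows. The Hist3h2a promoter holds the octamer 119 bases before the start, on the reverse strand, and CCAAT on both strands. The Hist3h2ba promoter holds 4 CCAAT matches and a TATAAA 39 bases before the start. A match is a description of letters and not of a bound factor.

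Histone RNA made up 2.01% of all TPM at gefitinib day 3 and 1.54% at gefitinib day 14, against 6.80% at vehicle day 3. At day 21 it made up 3.51% with DC101, 0.578% with 4H2 and 1.31% in the combination library, against 3.44% with vehicle. The summed levels behind these shares were 20059 and 15386 TPM in the gefitinib libraries, against 67967 TPM at vehicle day 3, and 35143, 5776 and 13131 TPM with DC101, 4H2 and the combination, against 34389 TPM at vehicle day 21. The order from high to low was therefore vehicle day 3, DC101, vehicle day 21, gefitinib day 3, gefitinib day 14, combination and 4H2, and with 1 library each no spread is available to separate neighbours such as DC101 and vehicle day 21. Among the 65 members, 63 had their highest value at vehicle day 3 and 58 had their lowest with 4H2. The same counts were not made over all genes, so that no share is available to set beside them.

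**Figure D1:**
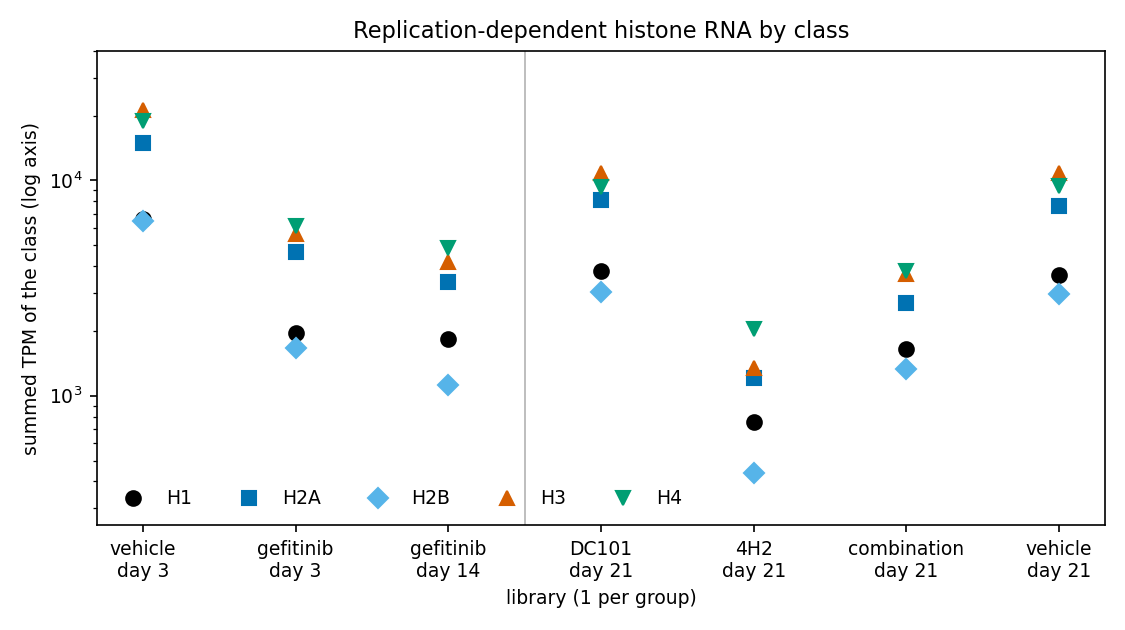
Summed TPM (log axis) of the 5 histone classes in each of the 7 libraries, 1 library per group, with the gefitinib series left of the line and day 21 to its right. All classes were highest at vehicle day 3 and lowest with 4H2, where H4 summed to 2032 TPM and H2B to 435 TPM.

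Gefitinib libraries held less RNA of nearly every histone gene than the vehicle library of day 3. Differences are given as log2((TPM + 1) / (TPM + 1)) and a member is counted when it differs by at least 2-fold on that scale. At gefitinib day 3, 60 of 65 members were at least 2-fold lower than at vehicle day 3, where 14.4% of all 13997 genes were, and 1 member was at least 2-fold higher, where 20.8% of all genes were. The median difference of the members was -1.80, beside -0.09 over all genes, and their summed TPM was 3.39-fold lower. At gefitinib day 14, 62 members were lower than at vehicle day 3 (12.7% of all genes) and 1 was higher (22.7% of all genes), with a median of -2.17, beside 0.03 over all genes, and a sum that was 4.42-fold lower. The single higher member was Hist3h2ba both times.

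The classes differed in the size of the difference more at day 14 than at day 3. At gefitinib day 3 the sums were 3.37-fold lower for H1, 3.19-fold for H2A, 3.87-fold for H2B, 3.77-fold for H3 and 3.07-fold for H4 than at vehicle day 3. At gefitinib day 14 they were 3.60-fold lower for H1, 4.41-fold for H2A, 5.76-fold for H2B, 5.05-fold for H3 and 3.87-fold for H4. Between the 2 gefitinib libraries the members differed little: 3 were at least 2-fold lower at day 14 than at day 3 (2.73% of all genes) and 2 higher (4.93% of all genes), with a median of -0.39, beside 0.11 over all genes. The difference was nearly uniform in direction, since 59 of the 65 members lay below 0, and it was smallest for H1, whose sum was 1835 TPM at day 14 and 1964 TPM at day 3.

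Muscle, macrophage and fibroblast genes were higher and most epithelial genes lower in the gefitinib libraries. The 12 muscle genes took 0.231% of all TPM at gefitinib day 3 and 0.387% at gefitinib day 14, against 0.0307% at vehicle day 3. The 8 fibroblast genes took 2.40% and 1.19%, against 0.237%, and the 8 macrophage genes 1.20% and 1.34%, against 0.139%. The 13 epithelial genes took 0.134% and 0.216%, against 0.439%. All members of the muscle, fibroblast, macrophage and T cell lists were at least 2-fold higher in both gefitinib libraries. Over all genes, 20.8% were higher at gefitinib day 3 and 22.7% at gefitinib day 14. Of the 13 epithelial genes, 12 were at least 2-fold lower at gefitinib day 3 and 7 at gefitinib day 14. Over all genes, 14.4% and 12.7% were lower. The epithelial gene with the highest difference at gefitinib day 14, Cldn4, was at 0.35. No marker list summed to 0 anywhere, and the part of these shifts in the histone differences was not tested. The sums of the T cell and B cell lists were at most 0.0637% and 0.037% of all TPM in any library.

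After 7 days without gefitinib, histone RNA was higher again but below the day 3 vehicle library. At vehicle day 21, 47 of 65 members were at least 2-fold higher than at gefitinib day 14 (7.62% of all genes) and 1 was lower (7.89% of all genes). The median was 1.19, beside -0.01 over all genes, and the summed TPM was 2.24-fold higher. By class the sum was 1.97-fold higher for H1, 2.26-fold for H2A, 2.64-fold for H2B, 2.57-fold for H3 and 1.93-fold for H4, so that H2B and H3, the classes with the largest differences at gefitinib day 14, also had the largest here. Both comparisons use the gefitinib day 14 library. At vehicle day 21, 12 of 13 epithelial genes were at least 2-fold higher than at gefitinib day 14, and 7 of 8 macrophage, 7 of 8 T cell and 4 of 5 B cell genes were lower. The epithelial genes took 0.825% of all TPM at vehicle day 21, against 0.216% at gefitinib day 14, and the macrophage genes 0.596%, against 1.34%. Their part in the histone differences was not tested. The 1 lower member, Hist2h2aa2, was listed at 0 at vehicle day 21, against 11 TPM at gefitinib day 14.

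Set against vehicle day 3, the vehicle day 21 library had 30 members at least 2-fold lower (3.11% of all genes) and 1 higher (15.3% of all genes), with a median of -0.95, beside 0.04 over all genes. Many members lay close to the 2-fold limit, since the sums of the classes were between 1.83-fold lower for H1 and 2.18-fold lower for H2B. All 12 muscle genes, 7 of 8 macrophage, 7 of 8 fibroblast, all 8 T cell, 3 of 5 B cell and 5 of 13 epithelial genes were at least 2-fold higher at vehicle day 21 than at vehicle day 3, and their part in the histone differences was not tested. With TPM rescaled without histone, ribosomal protein, hemoglobin and muscle genes, 47 members were past the limit. Hist1h2bk, an H2B gene, had the lowest difference among members not listed at 0, with 175.5 TPM at vehicle day 21, against 491.3 TPM at vehicle day 3, a log2 difference of -1.48.

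DC101 alone went with almost no difference in histone RNA. With DC101, 1 member was at least 2-fold lower than at vehicle day 21 (1.11% of all genes) and 2 were higher (3.12% of all genes), with a median of 0.07, beside -0.05 over all genes. The class sums differed from vehicle day 21 by 1.05-fold for H1, 1.06-fold for H2A, 1.02-fold for H2B, 1.01-fold for H3 and 0.994-fold for H4, and the last of these turned above 1 under both rescalings. The members past the limit were Hist1h2bq, Hist1h2br and Hist2h2aa2, each of which shares its coding sequence with another copy. Muscle genes took 1.81% of all TPM with DC101, against 0.322% at vehicle day 21, and histone RNA took 3.51%, against 3.44%. The part of the muscle shift in the histone differences was not tested.

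The 4H2 library had the least histone RNA. With 4H2, 61 of 65 members were at least 2-fold lower than at vehicle day 21 (20.0% of all genes) and 1 was higher (10.9% of all genes). The median was -2.77, beside -0.21 over all genes, and the summed TPM was 5.95-fold lower. H3 was 7.99-fold lower, H2B 6.81-fold, H2A 6.32-fold, H1 4.79-fold and H4 4.63-fold. The member counted as higher was Hist2h2aa2, at 5 TPM with 4H2 and listed at 0 at vehicle day 21, so that no fold can be given.

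With DC101 added to 4H2 the histone sum lay between those of 4H2 and of vehicle. The combination had 50 members at least 2-fold lower than vehicle day 21 (17.0% of all genes) and 2 higher (11.7% of all genes), with a median of -1.32, beside -0.17 over all genes. The higher members were Hist3h2ba and Hist2h2aa2, which was listed at 0 at vehicle day 21. The lowest members were Hist1h2bq and Hist1h2ap, both of which share their coding sequence with another copy and are uncertain. Hist1h2ap was at 370.1 TPM with the combination, against 1538 TPM at vehicle day 21 (-2.05). Its copy Hist1h2ao differed by -0.68, and the sum of the pair by -1.89. Set against 4H2 alone, the combination had 49 members at least 2-fold higher (4.94% of all genes) and none lower (0.464% of all genes), with a median of 1.34, beside 0.06 over all genes. The sum was 2.27-fold higher than with 4H2, and 3.07-fold higher for H2B, 2.72-fold for H3, 2.23-fold for H2A, 2.18-fold for H1 and 1.87-fold for H4. The members below 0 in it were Hist1h4i and Hist2h2be, an H2B gene at 3.1 TPM with the combination and 4.9 TPM with 4H2.

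Epithelial and muscle genes also moved between the day 21 libraries. The 13 epithelial genes took 0.553% of all TPM with DC101, 0.0051% with 4H2 and 0.0423% in the combination library, against 0.825% at vehicle day 21. All 13 epithelial genes were at least 2-fold lower with 4H2 and with the combination, with medians of -6.44 and -3.98. Over all genes, 20.0% and 17.0% were lower. The muscle share was 8.49% with 4H2 and 8.41% with the combination. Between these libraries, 11 of 13 epithelial genes were at least 2-fold higher with the combination than with 4H2 (4.94% of all genes). Of the 8 T cell genes, 6 were at least 2-fold higher with 4H2 and 4 with the combination than at vehicle day 21. Over all genes, 10.9% were higher with 4H2 and 11.7% with the combination. The part of these shifts in the histone differences was not tested.

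**Figure D2:**
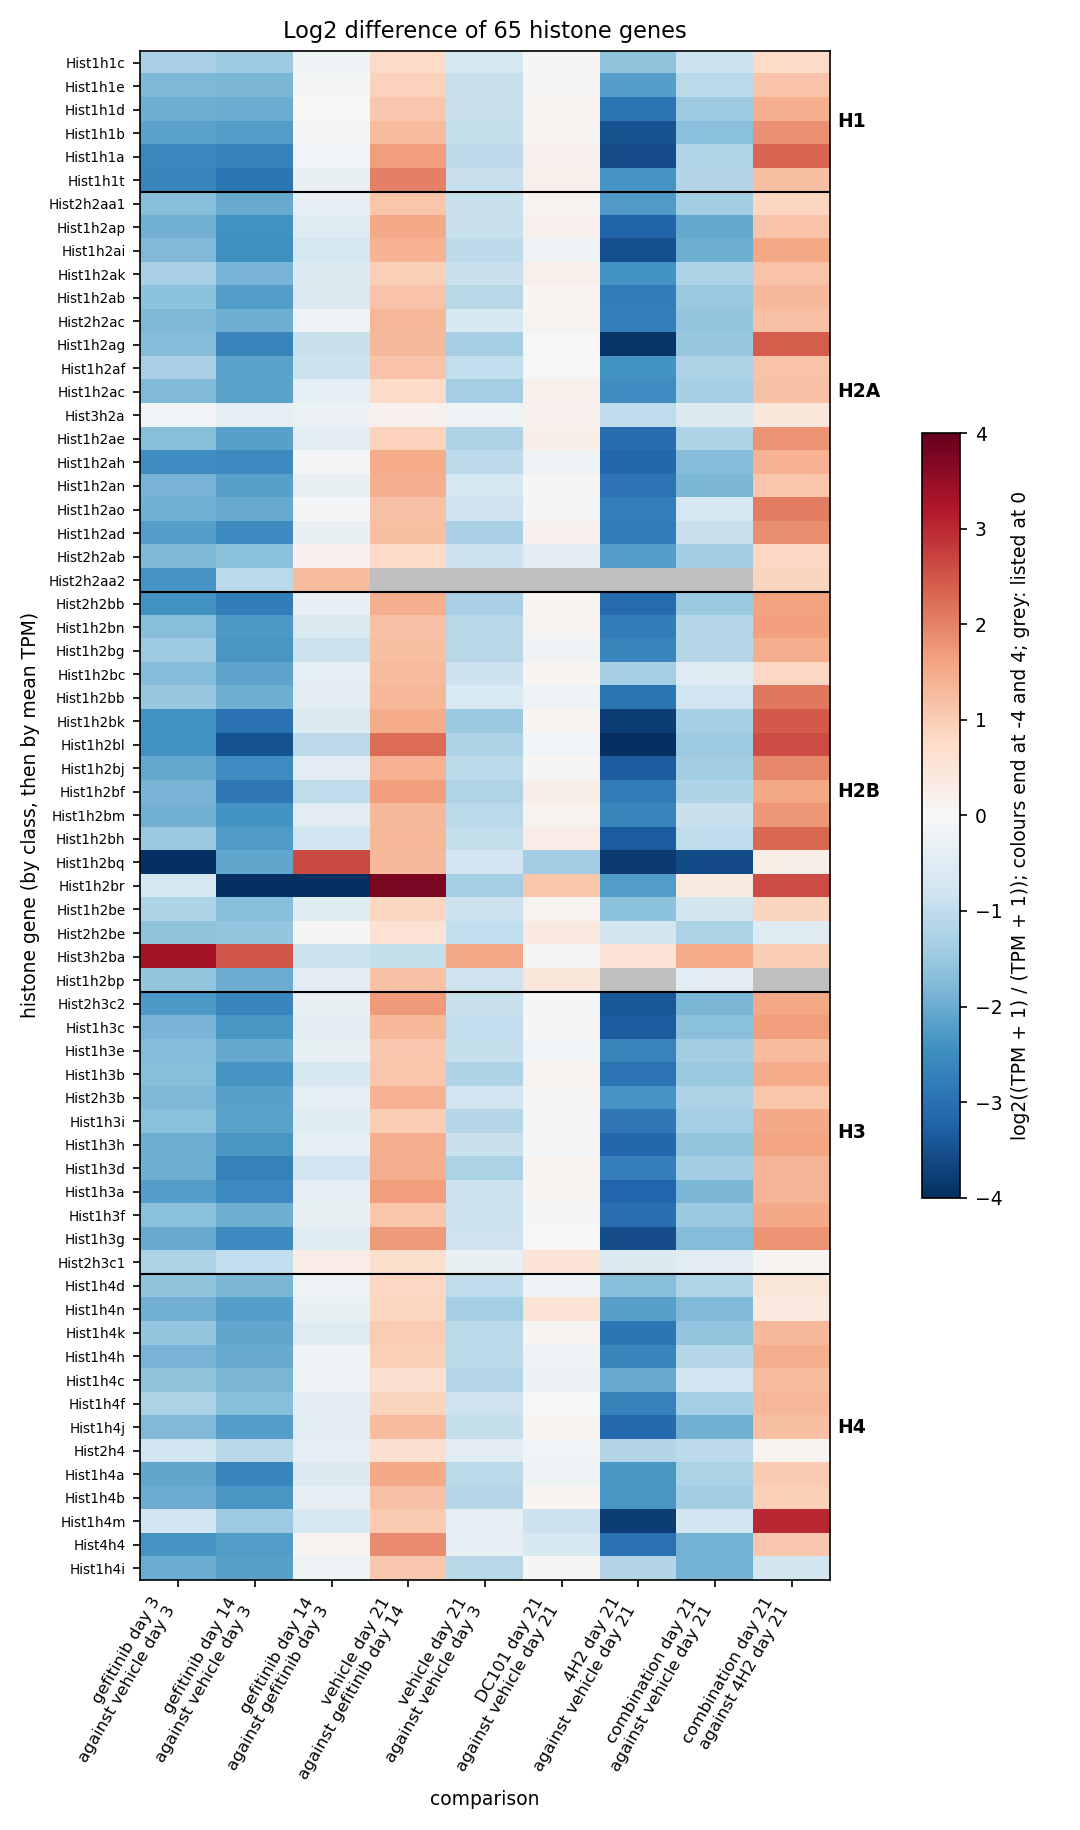
Log2 difference of each of the 65 histone genes that passed the minimum of 1 TPM (rows, by class and then by mean TPM) in each of the 9 comparisons (columns), with blue for lower and red for higher in the library named first. Most rows are blue in the gefitinib, 4H2 and combination columns against vehicle, while in the gefitinib columns against vehicle Hist3h2a stays pale and Hist3h2ba is red (2 rows of the H2A and H2B blocks); grey cells have a value listed at 0.

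In percentage points, class shares of the histone sum differed mainly for H3 and H4. The share of H1 ran from 9.73% at vehicle day 3 to 13.1% with 4H2. That of H2B ran from 7.29% at gefitinib day 14 to 10.2% in the combination library. H3 made up 28.1% of histone TPM at gefitinib day 3 and 27.3% at gefitinib day 14, against 31.2% at vehicle day 3. At day 21 it made up 30.9% with DC101, 23.4% with 4H2 and 27.9% in the combination library, against 31.3% with vehicle. H4 made up 30.6% and 31.6% in the gefitinib libraries, against 27.7% at vehicle day 3, and 26.6% with DC101, 35.2% with 4H2 and 28.9% in the combination library, against 27.4% at vehicle day 21. H4 was thus the largest class in the gefitinib, 4H2 and combination libraries and H3 in the other 3. H1 amounted to 10.9 and 13.5 TPM per 100 TPM of core histones in the gefitinib libraries, against 10.8 at vehicle day 3. It amounted to 12.1 with DC101, 15.0 with 4H2 and 14.4 in the combination library, against 11.8 at vehicle day 21. The value with 4H2 leans on Hist1h1c, which gave 382.6 of the 755 TPM of H1, against 1178 of 3618 TPM at vehicle day 21.

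Linker histones bind the DNA between nucleosomes and compact chromatin. Hist1h1c, the most abundant of them here, had 790.1 TPM at gefitinib day 3 and 699 TPM at gefitinib day 14, against 1929 TPM at vehicle day 3, and 1224 TPM with DC101, 383 TPM with 4H2 and 650.3 TPM with the combination, against 1178 TPM at vehicle day 21. Hist1h1e had 541 TPM at gefitinib day 3 and 527 TPM at gefitinib day 14, against 1887 TPM at vehicle day 3, and 1017 TPM with DC101, 216 TPM with 4H2 and 473 TPM with the combination, against 991 TPM at vehicle day 21. Hist1h1d had 342 TPM at gefitinib day 3 and 336 TPM at gefitinib day 14, against 1333 TPM at vehicle day 3, and 758 TPM with DC101, 93.3 TPM with 4H2 and 258 TPM with the combination, against 712 TPM at vehicle day 21. All H1 genes were lower in both gefitinib libraries and with 4H2 than in their vehicle libraries, but Hist1h1c was lower by less than any other H1 gene in each of these 3 comparisons. Its log2 differences were -1.29 at gefitinib day 3, -1.46 at gefitinib day 14 and -1.62 with 4H2, while those of Hist1h1a were -2.58, -2.70 and -3.53. Hist1h1t, known as the testis H1, was at 1.2 TPM at gefitinib day 3 and 0.8 TPM at gefitinib day 14, against 12.6 TPM at vehicle day 3.

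H2A pairs with H2B at the outer faces of the nucleosome. Hist2h2aa1 had 932 TPM at gefitinib day 3 and 749 TPM at gefitinib day 14, against 3027 TPM at vehicle day 3, and 1739 TPM with DC101, 338 TPM with 4H2 and 621 TPM with the combination, against 1629 TPM at vehicle day 21. Hist1h2ap had 763 TPM at gefitinib day 3 and 536 TPM at gefitinib day 14, against 2871 TPM at vehicle day 3, and 1740.2 TPM with DC101, 167 TPM with 4H2 and 370.1 TPM with the combination, against 1538 TPM at vehicle day 21. Hist1h2ai had 449 TPM at gefitinib day 3 and 276 TPM at gefitinib day 14, against 1522 TPM at vehicle day 3, and 653 TPM with DC101, 62.9 TPM with 4H2 and 186 TPM with the combination, against 729.9 TPM at vehicle day 21. The 3 genes kept the same order of libraries as the class sum, except that Hist1h2ai was lower with DC101 than at vehicle day 21. Hist1h2ag had one of the 2 lowest differences with 4H2, at 22 TPM, against 349.3 TPM at vehicle day 21 (-3.93). With the combination it was at 122.8 TPM, and its log2 difference from 4H2 was 2.43.

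H2B was the class with the lowest sum in every library. Hist2h2bb had 306 TPM at gefitinib day 3 and 243 TPM at gefitinib day 14, against 1656 TPM at vehicle day 3, and 710.2 TPM with DC101, 78.2 TPM with 4H2 and 239.7 TPM with the combination, against 673 TPM at vehicle day 21. Hist1h2bn had 210.1 TPM at gefitinib day 3 and 139 TPM at gefitinib day 14, against 689.9 TPM at vehicle day 3, and 340.5 TPM with DC101, 45.4 TPM with 4H2 and 144 TPM with the combination, against 317 TPM at vehicle day 21. Hist1h2bg had 249 TPM at gefitinib day 3 and 136 TPM at gefitinib day 14, against 684 TPM at vehicle day 3, and 287 TPM with DC101, 51.1 TPM with 4H2 and 141 TPM with the combination, against 316 TPM at vehicle day 21. All 3 were highest at vehicle day 3 and lowest with 4H2, and Hist1h2bg was lower with DC101 than at vehicle day 21. Hist1h2bl, which shares 98.9% of its coding sequence with Hist1h2br, had the lowest difference of all members with 4H2, at 10.3 TPM, against 187.2 TPM at vehicle day 21 (-4.06). It was also at 39 TPM at gefitinib day 14, against 441.9 TPM at vehicle day 3 (-3.47).

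H3 pairs with H4 at the core of the nucleosome, and its tail carries many of the known chromatin marks. Hist2h3c2 had 773 TPM at gefitinib day 3 and 629 TPM at gefitinib day 14, against 3813 TPM at vehicle day 3, and 1971 TPM with DC101, 194 TPM with 4H2 and 574 TPM with the combination, against 2035 TPM at vehicle day 21. Hist1h3c had 774 TPM at gefitinib day 3 and 569 TPM at gefitinib day 14, against 2832 TPM at vehicle day 3, and 1487 TPM with DC101, 141 TPM with 4H2 and 448 TPM with the combination, against 1433 TPM at vehicle day 21. Hist1h3e had 712 TPM at gefitinib day 3 and 582 TPM at gefitinib day 14, against 2390.3 TPM at vehicle day 3, and 1149 TPM with DC101, 195 TPM with 4H2 and 466 TPM with the combination, against 1236 TPM at vehicle day 21. Hist2h3c2 was the most abundant histone gene at vehicle day 3, with DC101 and at vehicle day 21, and its difference with 4H2 was -3.38. Its rank among all genes at vehicle day 3 was 17.

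H4 is the most conserved core histone at the protein level. Hist1h4d had 1227 TPM at gefitinib day 3 and 1058 TPM at gefitinib day 14, against 3754 TPM at vehicle day 3, and 1700.3 TPM with DC101, 575 TPM with 4H2 and 803 TPM with the combination, against 1870.1 TPM at vehicle day 21. Hist1h4n had 764 TPM at gefitinib day 3 and 626 TPM at gefitinib day 14, against 2885 TPM at vehicle day 3, and 1653 TPM with DC101, 250.5 TPM with 4H2 and 331 TPM with the combination, against 1132 TPM at vehicle day 21. Hist1h4k had 819.8 TPM at gefitinib day 3 and 576 TPM at gefitinib day 14, against 2453 TPM at vehicle day 3, and 1251 TPM with DC101, 157 TPM with 4H2 and 389.7 TPM with the combination, against 1163 TPM at vehicle day 21. Hist1h4d was the most abundant histone gene in both gefitinib libraries, with 4H2 and with the combination, and its difference with 4H2 (-1.70) was smaller than that of Hist1h4k (-2.88). With 4H2, Hist1h4d alone gave 574.8 of the 2032 TPM of H4. Hist1h4i was the lowest member in the combination against 4H2, at 19.7 TPM with the combination and 33.1 TPM with 4H2 (-0.72).

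The Hist3 genes stood apart from the sums of the Hist1 and Hist2 clusters in the gefitinib libraries. Hist3h2a, an H2A gene, had 267 TPM at gefitinib day 3 and 227 TPM at gefitinib day 14, against 289.5 TPM at vehicle day 3, and 283 TPM with DC101, 124 TPM with 4H2 and 169.7 TPM with the combination, against 254 TPM at vehicle day 21. Hist3h2ba, an H2B gene, had 14.1 TPM at gefitinib day 3 and 7.4 TPM at gefitinib day 14, against 0.5 TPM at vehicle day 3, and 3.4 TPM with DC101, 5.1 TPM with 4H2 and 11 TPM with the combination, against 3.3 TPM at vehicle day 21. The level of Hist3h2a thus stayed within a log2 difference of -0.35 from vehicle day 3 in the gefitinib libraries, and its difference of -0.11 at gefitinib day 3 turned to 0.0044 under median-of-ratios rescaling. Its difference with 4H2, -1.02, was the only one past the limit in the 9 comparisons, and it was inside the limit under median-of-ratios rescaling (-0.77), under the other rescaling (-0.98) and, barely, with a pseudocount of 5. With 4H2, Hist2h2be (-0.73) and Hist2h3c1 (-0.57) of the Hist2 cluster were lower by less than Hist3h2a. Some members of the large clusters were also inside the 2-fold limit in the gefitinib libraries. These were Hist2h4 (-0.79), Hist1h4m (-0.75) and Hist1h2br (-0.72) at gefitinib day 3 and Hist2h3c1 (-0.97) at gefitinib day 14. Hist3h2ba was lowest at vehicle day 3, where 63 members were highest, and its difference was 3.33 at gefitinib day 3, 2.49 at gefitinib day 14 and 1.48 with the combination. Values of 0.5 to 14.1 TPM are low, and the reads behind them are unknown.

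By cluster, Hist1 summed to 16533 TPM at gefitinib day 3 and 12504 TPM at gefitinib day 14, against 55638 TPM at vehicle day 3. Hist2 summed to 3188 and 2586 TPM in the gefitinib libraries, against 11749 TPM at vehicle day 3. Hist4h4 had 56 TPM at gefitinib day 3 and 61.1 TPM at gefitinib day 14, against 291 TPM at vehicle day 3, and 148 TPM with DC101, 28.4 TPM with 4H2 and 61.3 TPM with the combination, against 229 TPM at vehicle day 21. The 2 large clusters and Hist4h4 moved alike under gefitinib, whereas the Hist3 sum was 281.5 and 234.7 TPM, against 290 TPM at vehicle day 3. With 4H2 the sums were 4454 TPM for Hist1, 1165 TPM for Hist2 and 129.5 TPM for Hist3, against 27514, 6388 and 257 TPM at vehicle day 21.

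Reads from near-identical copies can be split between them, and the sources used here do not say how the authors counted them. The median coding identity between pairs of members of a class was 96.6% for H2B, 97.2% for H3, 93.9% for H4, 91.5% for H2A and 70.6% for H1. In 5 pairs the coding sequences were identical, so that values of the single copies are uncertain: Hist1h2bq and Hist1h2br, Hist1h2ao and Hist1h2ap, Hist1h4m and Hist1h4n, Hist2h2aa1 and Hist2h2aa2, and Hist2h3c1 and Hist2h3c2. Hist1h2bq and Hist1h2br show it most. Hist1h2bq had 7.2 TPM at gefitinib day 3 and 49.8 TPM at gefitinib day 14, against 212 TPM at vehicle day 3, and 47 TPM with DC101, 7.8 TPM with 4H2 and 9.6 TPM with the combination, against 124 TPM at vehicle day 21. Hist1h2br had 58.2 TPM at gefitinib day 3 and 1.8 TPM at gefitinib day 14, against 96.4 TPM at vehicle day 3, and 81.1 TPM with DC101, 7.1 TPM with 4H2 and 48.2 TPM with the combination, against 37 TPM at vehicle day 21. Hist1h2br was the higher copy at gefitinib day 3, with DC101 and with the combination, and Hist1h2bq in the other libraries, with nearly equal values with 4H2. Both copies were highest at vehicle day 3. Their sum was 65.4 and 51.6 TPM in the gefitinib libraries, against 308.9 TPM at vehicle day 3, and 128.1, 14.9 and 57.8 TPM with DC101, 4H2 and the combination, against 161.4 TPM at vehicle day 21.

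Hist2h2aa2 (0 to 24.4 TPM) and Hist2h3c1 (14.1 to 42.1 TPM) were each listed at a small share of their pair. Hist2h2aa1 and Hist2h2aa2 summed to 935.6 and 760.2 TPM in the gefitinib libraries, against 3052 TPM at vehicle day 3. Hist2h3c1 had its highest value with DC101 and differences of -1.27 at gefitinib day 3 and -0.57 with 4H2, while Hist2h3c2, its copy, differed by -2.30 and -3.38. Hist1h4n was above Hist1h4m in all 7 libraries, but by unequal amounts: with DC101 they were at 1653 and 260.7 TPM and with the combination at 330.7 and 279.3 TPM, against 1133 and 474.8 TPM at vehicle day 21. When each pair was summed to 1 entry, no entry was past the limit in DC101 against vehicle day 21, in either direction.

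**Figure D3:**
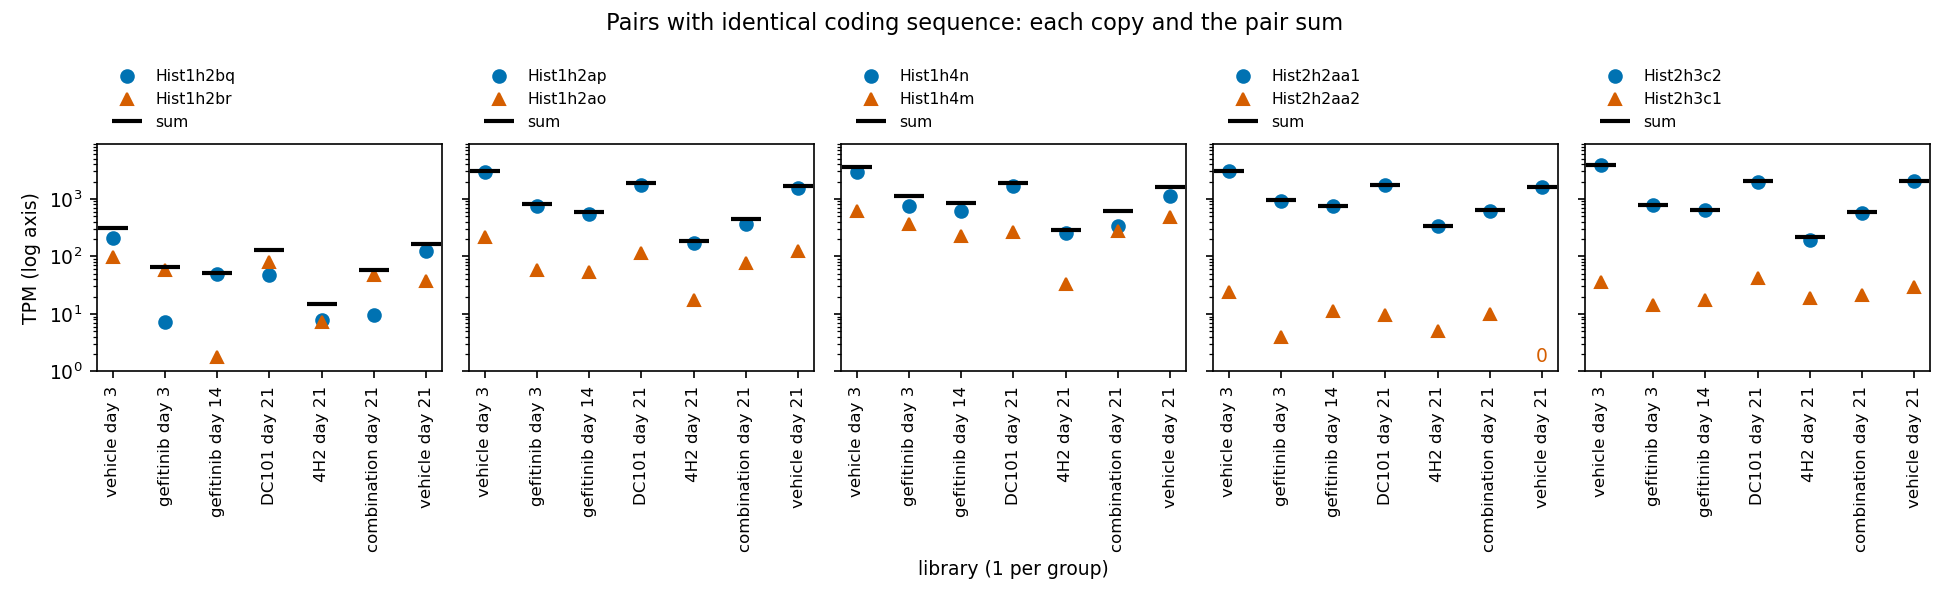
TPM (log axis) of both copies of the 5 pairs with identical coding sequence (circles and triangles) and of their sum (bars) in the 7 libraries. The copies Hist1h2bq and Hist1h2br change places between libraries, and the 0 marks Hist2h2aa2 at vehicle day 21.

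Gene models were sorted by their 3-prime end. In 23 members the model ended within 100 bases past the stem-loop, in 23 it ran further, and in 21 it held no stem-loop. A poly(A) signal (AATAAA or ATTAAA) in the last 50 bases was found in 12 of the models that ran past, in 1 that ended by the stem-loop and in 3 without one. The 12 were Hist3h2a (2146 bases), Hist3h2ba (614), Hist2h4 (1630), Hist2h3c1 (1825), Hist4h4 (2863), Hist1h1c (1560), Hist1h1t (912), Hist1h2ae (704), Hist1h2be (2506), Hist1h4a (539), Hist1h4i (727) and Hist1h4j (774). With 4H2 their differences ran from -3.10 (Hist1h4j) to 0.50 (Hist3h2ba), with a median of -1.63. The other 11 models that ran past the stem-loop had -3.38 (Hist2h3c2) to -1.70 (Hist1h4d), with a median of -2.66, a division made after the values were seen. In the same order, the medians were -1.49 and -1.75 at gefitinib day 3, and -1.93 and -2.04 at gefitinib day 14. With the combination against vehicle they were -1.11 and -1.31, so that the gap was wider with 4H2. TPM divides by the length of a model, so that these values also depend on which model the authors used.

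Members whose model ran past the stem-loop were lower by less than the others with 4H2. Their median was -2.36, against -2.79 for models that ended by it and -2.88 for models without one, and their summed TPM differed by a log2 ratio of -2.25, against -2.83 in both other kinds. At gefitinib day 14 the medians were -2.04, against -2.31 and -2.18, and the sums differed by -1.98, against -2.22 and -2.29. With the combination the medians were -1.22, against -1.38 and -1.39. The ranges overlapped widely, from -3.38 to 0.50 with 4H2 for models that ran past and from -4.06 to -0.73 for models without a stem-loop, and the kinds differ in class, with 4 of the 6 H1 genes in the first.

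**Figure D4:**
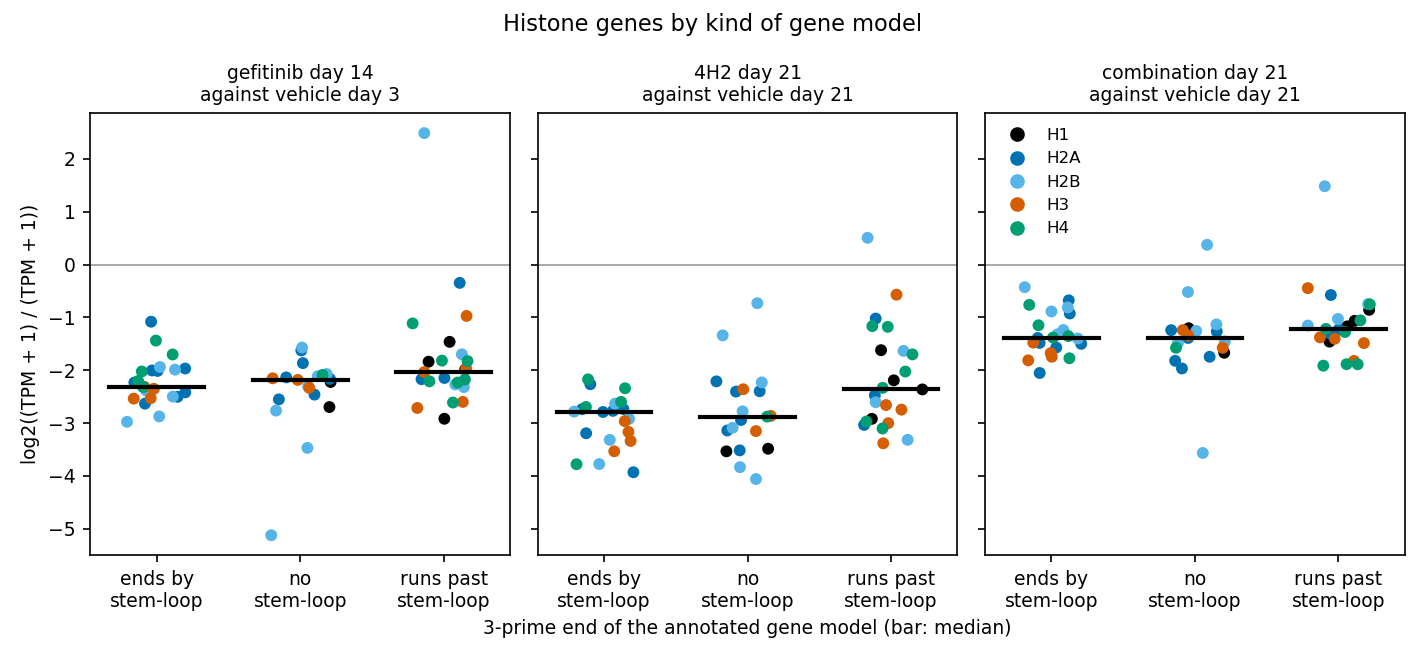
Log2 difference of each histone gene by the kind of its annotated 3-prime end (points coloured by class, bars at the median over the members compared) in 3 comparisons, without points for values listed at 0. With 4H2 the medians were -2.79, -2.88 and -2.36 from left to right, and the points of the 3 kinds overlap.

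Other S phase RNAs were also lower in the gefitinib, 4H2 and combination libraries than in their vehicle libraries, with medians closer to 0 than those of the histone members. The S phase and replication list held 21 genes, among them Pcna, the sliding clamp of DNA polymerase, and the helicase subunits Mcm7 and Mcm3. At gefitinib day 3, 17 of the 21 were at least 2-fold lower than at vehicle day 3, with a median of -1.58 (14.4% of all genes were lower). At gefitinib day 14, 18 were lower, with a median of -1.68 (12.7% of all genes). At vehicle day 21, 13 were at least 2-fold higher than at gefitinib day 14, with a median of 1.16, beside 1.19 for the histone members (7.62% of all genes were higher). With 4H2, 19 were lower than at vehicle day 21, with a median of -1.93, beside -2.77 for the histone members (20.0% of all genes). With the combination, 17 were lower than at vehicle day 21, with a median of -1.29, beside -1.32 (17.0% of all genes). Set against 4H2, the combination had 0 of 21 past the limit and a median of 0.67, beside 49 of 65 histone members and 1.34. At vehicle day 21 against vehicle day 3, 0 of 21 were past the limit, with a median of -0.47, beside 30 lower histone members and -0.95. With DC101 none passed the limit in either direction, with a median of -0.03, beside 0.07 for the histone members.

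Pcna had 167 TPM at gefitinib day 3 and 134 TPM at gefitinib day 14, against 269.7 TPM at vehicle day 3, and 221 TPM with DC101, 77.5 TPM with 4H2 and 116 TPM with the combination, against 195 TPM at vehicle day 21. Mcm7 had 48.6 TPM at gefitinib day 3 and 46.8 TPM at gefitinib day 14, against 164 TPM at vehicle day 3, and 125 TPM with DC101, 20.9 TPM with 4H2 and 39.8 TPM with the combination, against 118 TPM at vehicle day 21. Mcm3 had 47.3 TPM at gefitinib day 3 and 44.1 TPM at gefitinib day 14, against 119 TPM at vehicle day 3, and 86 TPM with DC101, 28.2 TPM with 4H2 and 38.9 TPM with the combination, against 87.8 TPM at vehicle day 21. Their order of libraries resembled that of the histone sum, with 4H2 lowest for all 3.

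In the gefitinib, 4H2 and combination libraries against vehicle, the medians of the mitosis list were further from 0 than those of the histone genes. All 17 of its genes were at least 2-fold lower than in their vehicle libraries at both gefitinib days, with 4H2 and with the combination. Over all genes, 14.4% were lower at gefitinib day 3, 12.7% at gefitinib day 14, 20.0% with 4H2 and 17.0% with the combination. The medians of the list were -2.18, -2.44, -2.98 and -1.97, beside -1.80, -2.17, -2.77 and -1.32 for the histone members. In the combination against 4H2 the median of the mitosis list was 1.17, beside 1.34, with 12 of 17 higher (4.94% of all genes). At vehicle day 21 against vehicle day 3 it was -0.68, beside -0.95, with 1 of 17 lower (3.11% of all genes). Histone RNA per S phase RNA (ratio of the summed TPM) was 31.8 and 26.3 in the gefitinib libraries, against 40.4 at vehicle day 3, and 28.7 with DC101, 18.9 with 4H2 and 26.6 in the combination library, against 28.8 at vehicle day 21. Histone RNA per mitosis RNA was 54.3 and 49.8, against 36.6, and 33.2, 47.7 and 46.3, against 29.8. In the gefitinib, 4H2 and combination libraries the histone sum therefore lay between the lists. Against the vehicle library of the same comparison it was lower per S phase RNA and higher per mitosis RNA. At vehicle day 21 it was lower than at vehicle day 3 per RNA of either list.

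**Figure D5:**
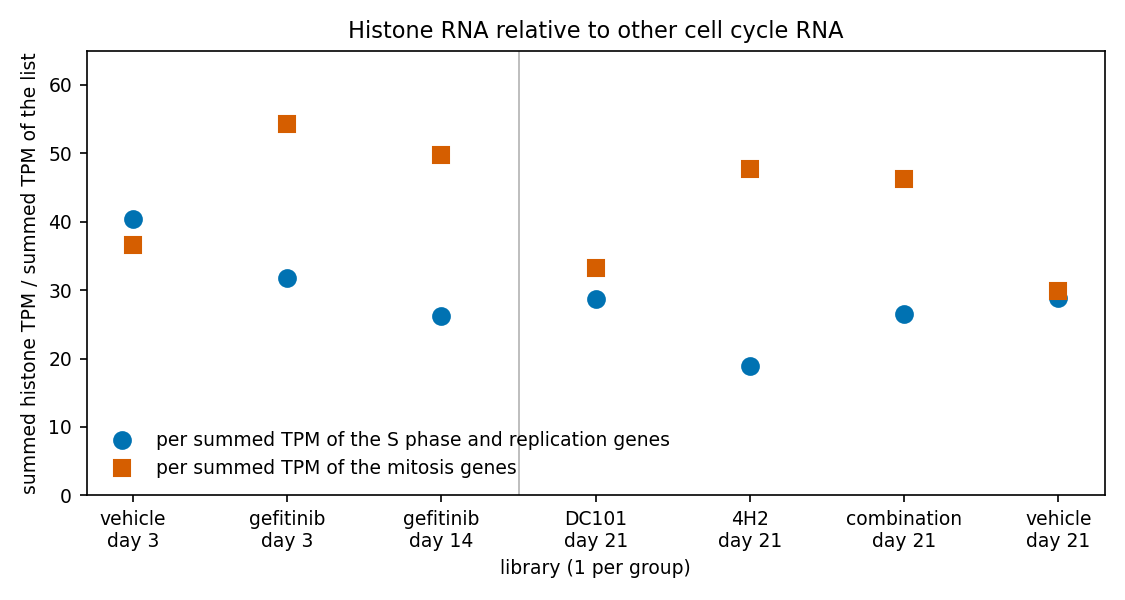
Summed histone TPM divided by the summed TPM of the S phase and replication genes (circles) or of the mitosis genes (squares) in each of the 7 libraries. The circles range from 18.9 with 4H2 to 40.4 at vehicle day 3 and the squares from 29.8 at vehicle day 21 to 54.3 at gefitinib day 3.

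Genes for the transcription and 3-prime processing of histone mRNA moved little beside their targets. Of 11, 2 were at least 2-fold lower at gefitinib day 3 and at gefitinib day 14 than at vehicle day 3, namely Cpsf3, the endonuclease that cuts the pre-mRNA, and Zfp473, a zinc finger protein of the U7 machinery, a share near the 14.4% and 12.7% of all genes. Slbp, which binds the stem-loop, had 36.4 TPM at gefitinib day 3 and 36.1 TPM at gefitinib day 14, against 37.6 TPM at vehicle day 3, and 41.4 TPM with DC101, 25.2 TPM with 4H2 and 30.1 TPM with the combination, against 32.6 TPM at vehicle day 21. Npat, the coactivator of histone genes, had 8.4 TPM at gefitinib day 3 and 11.6 TPM at gefitinib day 14, against 15.8 TPM at vehicle day 3, and 13 TPM with DC101, 7.9 TPM with 4H2 and 7 TPM with the combination, against 14.7 TPM at vehicle day 21. The difference of Slbp from its vehicle library was -0.36 with 4H2, where the histone sum was 5.95-fold lower, and smaller in the other treated libraries. With 4H2, 4 of the 11 were lower than at vehicle day 21 (Cpsf2, Cpsf3, Cstf2 and Zfp473), and with the combination 2 (Cpsf2 and Cpsf3). Over all genes, 20.0% were lower with 4H2 and 17.0% with the combination. Casp8ap2, Lsm10, Lsm11, Sympk and Eri1 passed the limit in no comparison.

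Histone chaperones, which escort new histones to DNA, had 5 of 10 genes lower at gefitinib day 3 and at gefitinib day 14 and 6 with 4H2, with medians of -1.01, -1.01 and -1.12, where 14.4%, 12.7% and 20.0% of all genes were lower. The abundant Rbbp7, Ipo4 and Rbbp4 were not among those past the limit, with 73.2, 55.9 and 38.3 TPM with 4H2, against 135.8, 63.3 and 59.1 TPM at vehicle day 21.

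Replacement histones were split. Of 11 genes, 5 were at least 2-fold lower at gefitinib day 3 than at vehicle day 3 and 1 higher, 7 lower and 1 higher at gefitinib day 14, and 7 lower with 4H2 than at vehicle day 21. Over all genes, 14.4% were lower and 20.8% higher at gefitinib day 3, 12.7% and 22.7% at gefitinib day 14, and 20.0% were lower with 4H2. H2afx, whose product is phosphorylated at DNA breaks, had 100.2 TPM at gefitinib day 3 and 107 TPM at gefitinib day 14, against 369 TPM at vehicle day 3, and 230.4 TPM with DC101, 44 TPM with 4H2 and 92.1 TPM with the combination, against 276 TPM at vehicle day 21. H2afz had 318 TPM at gefitinib day 3 and 292 TPM at gefitinib day 14, against 750.5 TPM at vehicle day 3, and 566 TPM with DC101, 172 TPM with 4H2 and 220.5 TPM with the combination, against 594 TPM at vehicle day 21. H1fx had 10.7 TPM at gefitinib day 3 and 11.5 TPM at gefitinib day 14, against 72.2 TPM at vehicle day 3, and 58.4 TPM with DC101, 6.7 TPM with 4H2 and 19.1 TPM with the combination, against 51.1 TPM at vehicle day 21. These 3 were among those at least 2-fold lower in both gefitinib libraries and with 4H2, as were H1f0 and Cenpa, the centromeric H3. H2afv, a close relative of H2afz, differed by -0.81 at gefitinib day 3, -1.33 at gefitinib day 14 and -0.78 with 4H2. H2afj, an H2A variant, differed by -0.37, -0.06 and -1.32.

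H3f3a and H3f3b encode the same H3.3 protein. H3f3a had 1014 TPM at gefitinib day 3 and 596 TPM at gefitinib day 14, against 1218 TPM at vehicle day 3, and 914 TPM with DC101, 542 TPM with 4H2 and 625 TPM with the combination, against 755 TPM at vehicle day 21. H3f3b had 445 TPM at gefitinib day 3 and 494 TPM at gefitinib day 14, against 649 TPM at vehicle day 3, and 721 TPM with DC101, 317 TPM with 4H2 and 296 TPM with the combination, against 661 TPM at vehicle day 21. H2afy, a macroH2A gene, had 61.9 TPM at gefitinib day 3 and 65.1 TPM at gefitinib day 14, against 60.1 TPM at vehicle day 3, and 54.5 TPM with DC101, 51.7 TPM with 4H2 and 48.1 TPM with the combination, against 58.3 TPM at vehicle day 21. The difference of H2afy furthest from 0 was -0.27, with the combination against vehicle day 21. H3f3a differed by -0.48 and H3f3b by -1.06 with 4H2, where the median of the replication-dependent H3 genes was -2.98. H2afy2, the other macroH2A gene, was the higher one, at 7.2 and 3.2 TPM in the gefitinib libraries, against 1.1 TPM at vehicle day 3. Histone RNA of the replication-dependent class per replacement RNA was 8.71 and 7.95 in the gefitinib libraries, against 17.4 at vehicle day 3, and 11.1 with DC101, 4.09 with 4H2 and 7.97 in the combination library, against 11.2 at vehicle day 21.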

How the data were processed

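RNA of 7 tumor libraries was measured after depletion of ribosomal RNA, in directional libraries, per the labels' protocols. The authors deposited TPM values, rounded to 1 decimal, for 21892 gene symbols; reads were assigned on GRCm38.p6, the build named per the submitters' processing notes, and the aligner, the counter and the annotation were not named in the sources used here. A TPM value keeps no depth, so no counting interval can be given, and the precision of low values is unknown. Each column was matched to its sample by title. Differences are log2((TPM + 1) / (TPM + 1)) from the deposited TPM; they cover 13997 genes whose mean was at least 1 TPM, and a gene was counted when it differed by at least 2-fold. With 1 library per group no test was possible.

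The members and the gene lists were chosen with earlier results of these data known. The named genes were the 3 members of each class with the highest mean TPM, the 2 highest and 2 lowest members of each comparison, all processing factors and replacement histones, and the 3 most abundant S phase and chaperone genes; the mitosis and marker lists are given by counts, medians or sums. Single members singled out beyond these were chosen after their values were seen. All 67 members were matched to GENCODE M21 by symbol and to RefSeq by synonym and position, and 62 had a promoter. The model used for a gene was the longest coding transcript, with preference for one that holds the stem-loop.

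The computations were tested on simulated data and run in Python 3.11.15 with numpy 2.4.6, pandas 2.3.3 and matplotlib 3.10.9. As alternatives, pseudocounts of 0.1 and 5, the omission of the filter, a minimum mean of 5 TPM, the mean in place of the median, a median-of-ratios rescaling over 7340 genes with at least 10 TPM in every library, and a rescaling without 187 histone, ribosomal protein, hemoglobin and muscle genes were tried. Summing the 5 identical pairs and moving the limit of 100 bases past the stem-loop to 50 or 200 were chosen after seeing the data.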

Additional observations from a re-analysis of the deposited data

Results flagged for a closer look

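The H4 sum was the only class sum whose difference between DC101 and no DC101 went opposite ways without and with 4H2. Single genes are given only where both differences were of some size, which left 2 H4 genes. Opposite differences that were small on at least 1 side occurred in other classes as well. Of the 65 members, 21 were lower with DC101 than at vehicle day 21, among them 4 H2A, 4 H2B and 5 H3 genes. With the combination, 63 members were higher than with 4H2. With 1 library per group, none of these differences was tested. For the H4 sum the log2 ratio was 0.90 with 4H2 present (combination against 4H2) and -0.0084 without it (DC101 against vehicle day 21), a gap of 0.91, and the second value turned positive under both rescalings. For Hist4h4 the log2 difference was 1.08 with 4H2 and -0.63 without it, a gap of 1.71. For Hist1h4m it was 3.01 with 4H2 and -0.86 without it, a gap of 3.88, and this gene shares its coding sequence with Hist1h4n. For the sum of Hist1h4m and Hist1h4n it was 1.10 with 4H2 and 0.25 without it, so that the opposite directions were lost when the copies were summed.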

How the results depend on the processing

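Medians and ratios of sums over all histone members kept their direction and stayed within 1.5-fold of their reported value under every alternative run. Of the class sums, that of H4 with DC101 turned from a log2 ratio of -0.0084 to 0.037 under median-of-ratios rescaling and to 0.021 under the other. The median with 4H2 ranged from -2.80 to -2.52 and that at gefitinib day 14 against vehicle day 3 from -2.39 to -2.12. Median-of-ratios rescaling moved the median of all genes from -0.21 to 0.018 with 4H2 and from -0.17 to 0.045 with the combination. Counts of members that moved by more than 1.5 times were small, except 1: between vehicle day 21 and vehicle day 3, 47 members were lower after rescaling without histone, ribosomal protein, hemoglobin and muscle genes, against 30. With a pseudocount of 5, gefitinib day 14 against gefitinib day 3 gave 1 lower and 1 higher member, vehicle day 21 against vehicle day 3 gave 0 higher, and the combination against vehicle day 21 gave 1 higher. With a pseudocount of 0.1, vehicle day 21 against gefitinib day 14 gave 2 lower. With identical pairs summed, the higher counts were 0 for gefitinib day 14 against gefitinib day 3, and, against vehicle day 21, 0 for DC101, 0 for 4H2 and 1 for the combination. The lower counts were 0 for vehicle day 21 against gefitinib day 14 and 0 for DC101. The histone sum per list differed by more than 1.5 times between the S phase and mitosis lists in 4 libraries, as reported.

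No paired analysis was possible because each group has 1 library. Leaving out a replicate was not possible for the same reason. The unknown depth limits what low members such as Hist3h2ba, Hist1h1t and Hist2h2aa2 show.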
